A study of Homo sapiens with 5 samples.

Results

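Astrocyte identity genes are genes used in practice to recognise astrocytes, the glial cells that supply neurons and clear neurotransmitters in the brain. The 10 members were taken by symbol from the per-gene read counts of each library: GFAP, S100B, AQP4, GJA1, SLC1A3, GLUL, CLU, NFIA, NFIB and SOX9. All 10 were among the 57905 genes with counts, and 7 of them passed the filter on low counts that left 16471 genes for testing. The cells were SVG-10B1, an established human astroglial line that was immortalised from fetal glial cells with SV40 large T antigen. The edited cells carried the substitution R132H in 1 allele of IDH1, written IDH1 R132H/WT, and were represented by 1 library of clone 2 and 2 libraries of clone 6. The wild-type cells were the unedited SVG-10B1 line, which the labels number as clone 1, with 2 libraries. All groups were grown in the same serum-containing medium with no further agent named. Each edited line was 1 numbered clone, and with no other unedited clone among the samples, effects of the edit and differences between clones cannot be told apart.

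Astrocytes mature from radial glia when the nuclear factor I proteins and SOX9 switch on glial genes, with help from signals that act through STAT3 and the BMP pathway. Mature cells hold an intermediate filament built from GFAP, place the water channel AQP4 at blood vessels, couple to each other through gap junctions of connexin 43, take up glutamate through SLC1A3 and SLC1A2, and turn it into glutamine with the enzyme made by GLUL.

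Reads assigned to genes came to between 13572114 and 16559077 in the 3 edited libraries and to 17603317 and 21881726 in the wild-type libraries. Whether replicates were separate cultures is not given in the labels, so the p-values rest on the spread among these libraries, which may be of technical origin. The share of reads on ribosomal RNA genes was 0.417% in clone 2, 9.79 and 0.631% in the clone 6 replicates, and 7.23 and 2.24% in the wild-type replicates. The libraries labelled clone 2 and clone 6 replicate 1 were more alike than the members of either replicate pair, with a median absolute difference of 0.105 on the log2 scale, against 0.294 for the clone 6 pair and 0.150 for the wild-type pair. The median chi-square of their difference was 1.49 times the value expected from sampling noise alone. This ratio was 9.89 for the clone 6 pair and 3.39 for the wild-type pair. The 2 libraries thus differed by little more than sampling noise, and they were kept apart as labelled. IDH1 had 110.5, 104 and 109 CPM (read counts scaled to library size) in clone 2 and clone 6 replicates 1 and 2, and 119 and 117 CPM in wild-type replicates 1 and 2. The log2 fold change of IDH1 was -0.13 (SE 0.0829, edgeR adjusted p = 0.313), and gene counts do not show the edited base.

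The members did not move as a group in the comparison of the edited libraries with wild type. GJA1, the gene of the gap junction protein connexin 43, and CLU, the gene of the secreted chaperone clusterin, were higher in the edited libraries, at 2.40 and 3.21 times the wild-type mean CPM. GLUL, the gene of glutamine synthetase, and NFIA, the gene of the gliogenic transcription factor nuclear factor I A, were lower, at 0.484 and 0.147 times the wild-type mean. SLC1A3, NFIB and SOX9 did not pass the test, and GFAP, S100B and AQP4 had too few reads to be tested in either genotype. Of the 7 members tested by edgeR's quasi-likelihood test, 4 were called at an adjusted p below 0.05, where 17.1% of all genes tested were called. These were 2 higher and 2 lower members, where 7.64% of all genes were called higher and 9.49% lower. The members' median log2 fold change was -0.23, beside 0.025 over all genes tested. It was 0.075 when no filter beyond 1 read was used. The 2 genotypes had separate ranges of CPM in 5 of the 7 members (GJA1, CLU, GLUL, NFIA and SOX9), where 51.5% of all genes tested did not overlap. In bulk RNA, fewer cells that express a gene and less of its RNA per cell cannot be told apart.

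**Figure D1:**
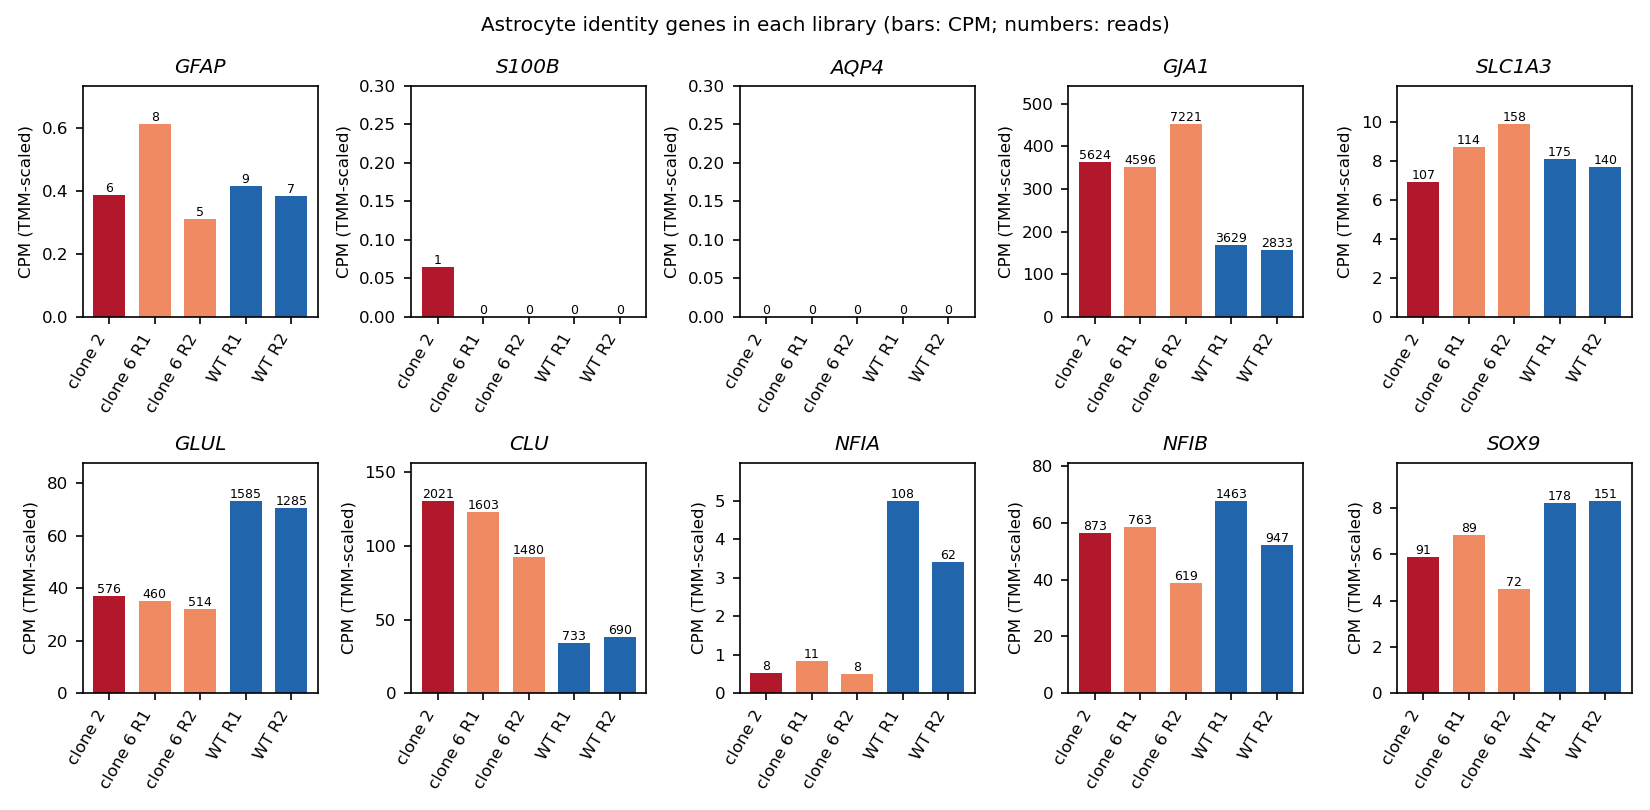
Bars show the level of each astrocyte identity gene in CPM on TMM-scaled library sizes, with a separate linear axis from 0 for each gene, in clone 2 and clone 6 (red and orange) and in wild type (blue), and the number on each bar is its read count. GJA1 and CLU stand higher in all 3 edited libraries than in both wild-type libraries, GLUL and NFIA stand lower, and S100B and AQP4 have at most 1 read in any library.

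Promoters of the called members are shown so that their base composition and short motifs can be seen beside the changes in transcript level. RefSeq promoter windows (GRCh38.p14), which run from 250 bases before to 50 after an annotated start, were matched by symbol for 6 of the 10 members, with 22 windows in all, and the first listed window of 3 called members is printed 5′ to 3′. Capitals mark matches on either strand to the nuclear factor I half-site TTGGC, the AP-1 site TGANTCA or the STAT site TTCNNNGAA. The GJA1 window lies on the plus strand at chr6:121435396-121435695, the GLUL window on the minus strand at chr1:182391741-182392040 and the NFIA window on the plus strand at chr1:61076977-61077276.
GJA1: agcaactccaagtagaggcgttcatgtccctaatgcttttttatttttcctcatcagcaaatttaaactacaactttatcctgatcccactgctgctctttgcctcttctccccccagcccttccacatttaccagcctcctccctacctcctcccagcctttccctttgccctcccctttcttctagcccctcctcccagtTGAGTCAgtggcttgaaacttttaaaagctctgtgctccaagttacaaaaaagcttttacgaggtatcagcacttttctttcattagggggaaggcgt
GLUL: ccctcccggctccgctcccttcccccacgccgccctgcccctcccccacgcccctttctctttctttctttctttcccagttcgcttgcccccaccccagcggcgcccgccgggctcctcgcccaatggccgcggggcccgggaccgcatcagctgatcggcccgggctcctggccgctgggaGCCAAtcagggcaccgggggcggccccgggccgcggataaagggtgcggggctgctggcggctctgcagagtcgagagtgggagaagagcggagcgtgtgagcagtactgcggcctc
NFIA: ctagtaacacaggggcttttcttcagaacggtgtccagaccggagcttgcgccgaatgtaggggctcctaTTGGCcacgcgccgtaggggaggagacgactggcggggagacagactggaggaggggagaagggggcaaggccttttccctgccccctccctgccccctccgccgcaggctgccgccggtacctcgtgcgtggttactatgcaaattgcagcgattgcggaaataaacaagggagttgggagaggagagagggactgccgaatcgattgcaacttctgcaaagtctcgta
The GJA1 window held an AP-1 match at position -48, counted from the annotated start, and no nuclear factor I half-site. The GLUL window held a half-site at -67, read as its reverse complement, and the NFIA window held one at -180. The half-site is short and occurred in 45.6% of all 35116 promoter windows, the AP-1 motif in 7.71% and the STAT motif in 7.66%, so a match is a description and not a site. The windows also differed in CpG content. The GJA1 window had 3 CpG dinucleotides, with fewer in 18.2% of all windows, the NFIA window had 20 with fewer in 58.8%, and the GLUL window had 29 with fewer in 75.8%, around a median of 14 per window. Windows of 1 gene differed as well, since the other NFIA windows had 10 and 41 CpG and no half-site. The other GLUL window had 25 CpG and a half-site at -112. Among members that were not called or not tested, CpG numbered 3 to 48 in the 10 windows of NFIB, 1 to 10 in the 3 of SLC1A3 and 2 to 4 in the 3 of AQP4. These members had motif matches too. Half-sites stood in several NFIB windows and at -136 in an SLC1A3 window. AP-1 matches stood at -128 and -26 in another SLC1A3 window, and STAT matches at -45 in SLC1A3 and -195 in AQP4.

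GFAP (ENSG00000131095, chromosome 17), the intermediate filament gene that most often defines astrocytes, was close to the limit of detection in every library. It had 6 reads in clone 2 and 8 and 5 reads in clone 6 replicates 1 and 2, and 9 and 7 reads in wild-type replicates 1 and 2. In CPM these were 0.387, 0.613 and 0.313 in the edited libraries and 0.416 and 0.385 in wild type. The genotypes overlapped, and clone 6 held both the highest and the lowest value. Over summed reads, 19 in the edited libraries and 16 in wild type, the ratio of rates was 1.06 with a 95% counting interval of 0.517 to 2.21, and differences within these bounds were not detectable at this depth. Exons of GFAP overlap those of CCDC103 and FAM187A on the opposite strand, and both had 0 reads in all 5 libraries. How reads in shared exons were counted is not given, so these counts do not show whether GFAP lost reads there.

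S100B (ENSG00000160307, chromosome 21), which encodes a calcium-binding protein of astrocytes, had 1 read in clone 2 and 0 reads in the other edited libraries and in both wild-type libraries. AQP4 (ENSG00000171885, chromosome 18), the main water channel of the brain, had 0 reads in all 5 libraries. A count of 0 allows a level of up to 0.194 CPM in clone 2, 0.230 and 0.188 CPM in clone 6 replicates 1 and 2, and 0.139 and 0.165 CPM in wild-type replicates 1 and 2. None of GFAP, S100B and AQP4, which are among the most used markers of the cell type on the label, was abundant in either genotype.

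GJA1 (ENSG00000152661, chromosome 6) encodes connexin 43, the main gap junction protein of astrocytes, and it had the highest level of the members per kb of exon in every library. Clone 2 had 363 CPM and clone 6 had 352 and 452 CPM in its replicates, against 168 and 156 CPM in the wild-type replicates. All edited libraries stood above both wild-type libraries, with clone 6 replicate 2 highest. The mean was 389 ± 54.7 CPM in the edited libraries (SD, n = 3) and 162 ± 8.38 CPM in wild type (SD, n = 2), and edgeR gave a log2 fold change of 1.26 (SE 0.134, edgeR adjusted p = 0.0022). The processed pseudogene GJA1P1, which is nearly identical in sequence, had 2 to 7 reads in the edited libraries and 8 in each wild-type library, against 2833 to 7221 reads of GJA1 per library. How reads that match both copies were counted is not given, so these counts do not show where shared reads went.

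SLC1A3 (ENSG00000079215, chromosome 5), the glutamate and aspartate transporter of astrocytes and radial glia, did not pass the test. Clone 2 had 6.90 CPM and clone 6 had 8.73 and 9.88 CPM in its replicates, against 8.09 and 7.70 CPM in the wild-type replicates. The wild-type values lay within the range of the edited ones. The means were 8.51 ± 1.502 CPM in the edited libraries (SD, n = 3) and 7.90 ± 0.272 CPM in wild type (SD, n = 2), with a log2 fold change of 0.11 (SE 0.188, edgeR adjusted p = 0.736) that was -0.036 without clone 6 replicate 2.

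GLUL (ENSG00000135821, chromosome 1), which encodes the enzyme that converts glutamate and ammonia to glutamine, was lower in every edited library. Clone 2 had 37.2 CPM and clone 6 had 35.2 and 32.2 CPM in its replicates, against 73.3 and 70.7 CPM in the wild-type replicates. The edited values lay in a narrow band whose mean was 0.484 times that of wild type. The means were 34.9 ± 2.53 CPM in the edited libraries (SD, n = 3) and 72.0 ± 1.81 CPM in wild type (SD, n = 2), and the log2 fold change was -1.05 (SE 0.100, edgeR adjusted p = 0.00151). The copy GLULP4 had at most 1 read in any library, with the same limit on shared reads as for GJA1P1.

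CLU (ENSG00000120885) encodes clusterin, an extracellular chaperone that astrocytes secrete and that carries lipids. Clone 2 had 130 CPM and clone 6 had 123 and 92.6 CPM in its replicates, against 33.9 and 38.0 CPM in the wild-type replicates. The edited libraries were all above the wild-type libraries, and clone 6 replicate 2 was the lowest of them. The means were 115 ± 20 CPM in the edited libraries (SD, n = 3) and 35.9 ± 2.89 CPM in wild type (SD, n = 2), and the log2 fold change was 1.68 (SE 0.168, edgeR adjusted p = 0.00177).

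NFIA (ENSG00000162599, chromosome 1), which starts gliogenesis in the embryonic nervous system and is needed for astrocyte formation, fell the most of the members. It had 8 reads in clone 2 and 11 and 8 reads in clone 6 replicates 1 and 2, against 108 and 62 reads in wild-type replicates 1 and 2. These were 0.516, 0.843 and 0.500 CPM in the edited libraries and 4.99 and 3.41 CPM in wild type. All edited libraries stood far below wild type, while the wild-type replicates themselves differed. The means were 0.620 ± 0.193 CPM in the edited libraries (SD, n = 3) and 4.20 ± 1.12 CPM in wild type (SD, n = 2), and the log2 fold change was -2.77 (SE 0.330, edgeR adjusted p = 0.00309). On summed reads, 27 in the edited libraries and 170 in wild type, the ratio of rates was 0.142 with a 95% counting interval of 0.0909 to 0.214.

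NFIB (ENSG00000147862, chromosome 9), a paralog of NFIA that also drives glial differentiation, had a higher level per kb of exon than NFIA and did not pass the test. Clone 2 had 56.3 CPM and clone 6 had 58.4 and 38.7 CPM in its replicates, against 67.6 and 52.1 CPM in the wild-type replicates. The genotypes overlapped, and clone 6 replicate 2 stood below the other 4 libraries. The means were 51.2 ± 10.8 CPM in the edited libraries (SD, n = 3) and 59.9 ± 10.97 CPM in wild type (SD, n = 2), with a log2 fold change of -0.23 (SE 0.201, edgeR adjusted p = 0.479).

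SOX9 (ENSG00000125398, chromosome 17), a transcription factor that acts before NFIA in the switch to glia and stays on in mature astrocytes, had lower values in the edited libraries that did not pass the test. Clone 2 had 5.87 CPM and clone 6 had 6.82 and 4.50 CPM in its replicates, against 8.23 and 8.31 CPM in the wild-type replicates. The genotypes did not overlap, and the edited libraries spread more widely than the wild-type pair. The means were 5.73 ± 1.16 CPM in the edited libraries (SD, n = 3) and 8.27 ± 0.0575 CPM in wild type (SD, n = 2), and the log2 fold change was -0.53 (SE 0.202, edgeR adjusted p = 0.12).

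Levels of different genes were compared per kb of merged exon. In the edited libraries GJA1 came first, at 114 ± 16.01 CPM per kb, followed by CLU at 29.5 ± 5.11, GLUL at 6.28 ± 0.456 and NFIB at 4.89 ± 1.04 CPM per kb (SD, n = 3). SLC1A3 at 2.04 ± 0.360 and SOX9 at 1.46 ± 0.296 CPM per kb overlapped. NFIA at 0.0604 ± 0.0188 CPM per kb overlapped GFAP at 0.0584 ± 0.0209 CPM per kb, and GFAP overlapped S100B. In wild type GJA1 again came first at 47.4 ± 2.46 CPM per kb, but GLUL at 13.0 ± 0.326 stood above CLU at 9.18 ± 0.739 CPM per kb (SD, n = 2). Below them were NFIB at 5.72 ± 1.05, SOX9 at 2.10 ± 0.0146, SLC1A3 at 1.89 ± 0.0653, NFIA at 0.409 ± 0.109 and GFAP at 0.0535 ± 0.00291 CPM per kb, and no neighbours among these overlapped. GLUL and CLU thus stood in opposite order in the edited and wild-type libraries, and NFIA overlapped GFAP in the edited libraries but stood above it in wild type. Among 19263 protein-coding genes ranked by mean level per kb, GJA1 was number 374 in the edited libraries and 1061 in wild type, CLU 1954 and 5530, GLUL 6773 and 4337, and NFIA 13302 and 11609.

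**Figure D2:**
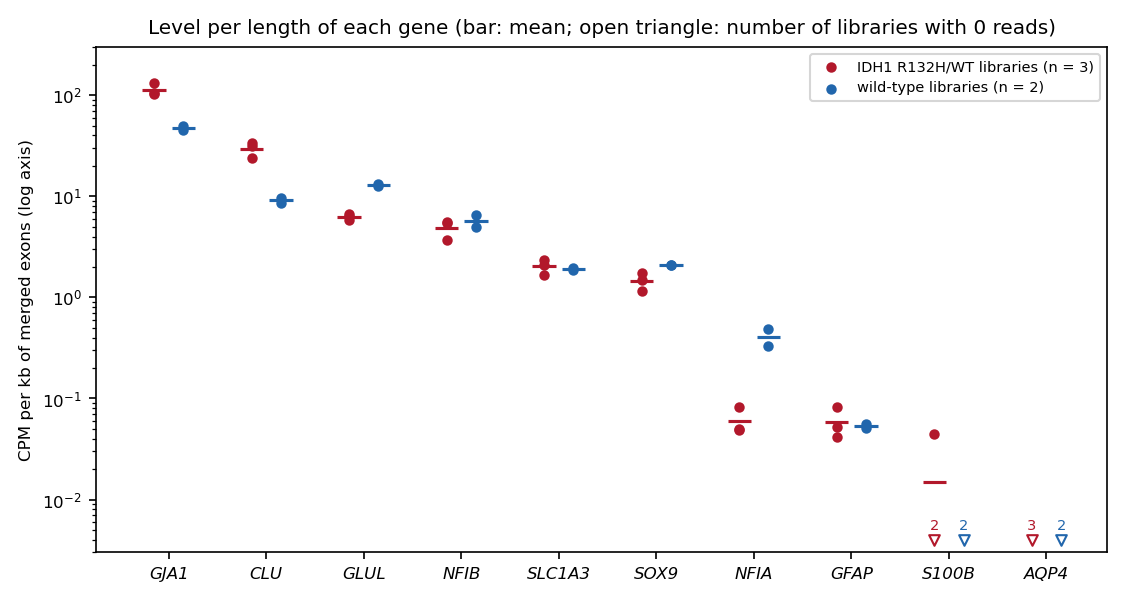
The level of each member per kb of merged exon is plotted on a log axis in CPM per kb for the 3 edited libraries (red) and the 2 wild-type libraries (blue), with a bar at the mean and an open triangle with the number of libraries that had 0 reads. GJA1 is highest in both genotypes, GLUL and CLU change places, and NFIA in the edited libraries sits beside GFAP.

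Each clone was also compared with wild type in a fit with 3 groups, where the 2 comparisons share the wild-type libraries. The libraries labelled clone 2 and clone 6 replicate 1 were more alike than the clone 6 pair. Like values in the 2 clones are therefore not independent replication. Clone 2 was 1 library with no spread of its own, so its SE and adjusted p rest on the spread within the clone 6 and wild-type pairs and assume that clone 2 varies as they do. In each, 2 members were called higher and 2 lower, where 3.81% of genes were called for clone 2 and 8.98% for clone 6. For GJA1 the log2 fold change was 1.17 in clone 2 (SE 0.186, adjusted p = 0.0272) and 1.31 in clone 6 (SE 0.159, adjusted p = 0.00702). For CLU it was 1.86 in clone 2 (SE 0.199, adjusted p = 0.00892) and 1.58 in clone 6 (SE 0.174, adjusted p = 0.00553). GLUL and NFIA were lower in each clone. For GLUL the log2 fold change was -0.95 in clone 2 (SE 0.166, adjusted p = 0.0346) and -1.10 in clone 6 (SE 0.131, adjusted p = 0.00687). For NFIA it was -3.01 in clone 2 (SE 0.561, adjusted p = 0.0421) and -2.66 in clone 6 (SE 0.415, adjusted p = 0.0152). SLC1A3 had values of opposite sign, -0.19 in clone 2 (SE 0.244) and 0.24 in clone 6 (SE 0.195), and neither passed the test.

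In the alternatives that kept all 5 libraries apart, GJA1, CLU, GLUL and NFIA were called in both clones, except that NFIA in clone 2 had an adjusted p of 0.0505 with upper-quartile scaling. With a wild-type library left out, wild type and clone 2 were 1 library each and the clone 6 pair alone gave the spread, so calls kept or lost in those fits say nothing about stability. CLU was called in both clones in each of them. In clone 6, leaving out wild-type replicate 1 gave an adjusted p of 0.0699 for GLUL and 0.115 for NFIA, and leaving out wild-type replicate 2 gave 0.0569 for GJA1 and 0.0541 for GLUL. In clone 2, leaving out wild-type replicate 1 or 2 gave 0.137 or 0.170 for GJA1, 0.281 or 0.227 for GLUL, and 0.221 or 0.0908 for NFIA. Without clone 6 replicate 1, each clone was 1 library, assumed to vary like the wild-type pair, and the values for clone 6 were -0.63 for NFIB (adjusted p = 0.0192) and -0.87 for SOX9 (adjusted p = 0.0189). Between clone 6 and clone 2, 0 of 16471 genes (0%) were called by edgeR, with 114 at an unadjusted p below 0.05 and 2 called by DESeq2. The spread in this test came from the clone 6 and wild-type pairs, which differed more than clone 2 and clone 6 replicate 1 did. The lack of calls therefore does not show that the clones agree. Member differences between the clones ranged from a log2 value of -0.28 for CLU (SE 0.204) to 0.43 for SLC1A3 (SE 0.246).

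**Figure D3:**
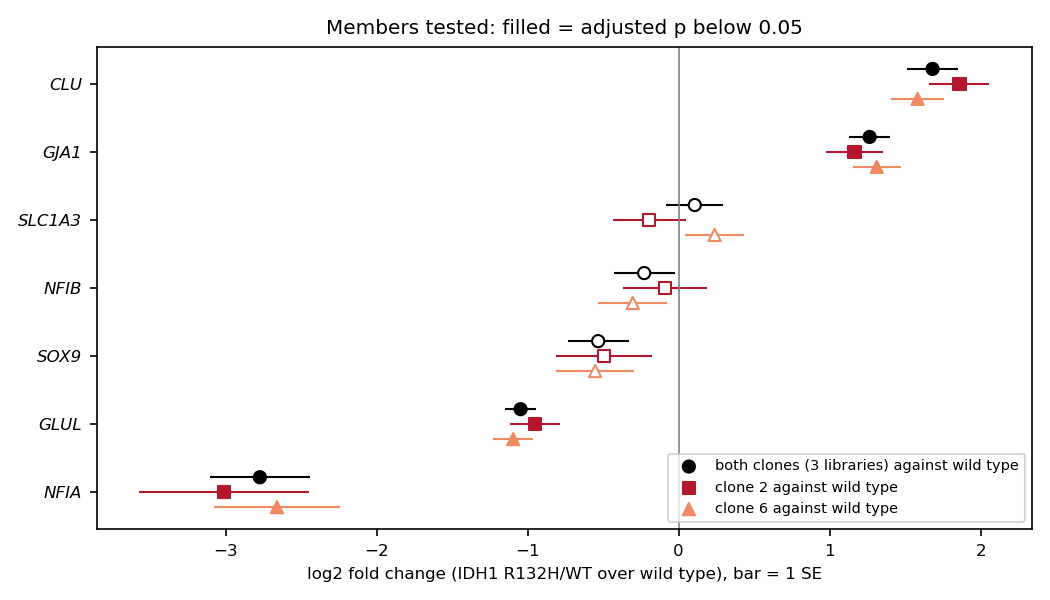
Log2 fold changes over wild type (x axis, bars of 1 SE) are drawn for the 7 members tested, for both clones together (black circles), clone 2 (red squares) and clone 6 (orange triangles), filled where the adjusted p is below 0.05. CLU and GJA1 lie to the right and GLUL and NFIA to the left of 0 in all 3 comparisons, which share libraries, and SLC1A3 has clone values on either side of 0.

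The lists that follow were chosen with earlier results of these data known, and counts of their calls are descriptions. Beyond the members, most other markers of mature astrocytes were at or near the limit of detection. Of 26 such genes, 9 could be tested, 11 had 10 reads or fewer over all 5 libraries and 4 had none (GJB6, SLC39A12, SLCO1C1 and ETNPPL). Some were well detected and not called. Mean CPM in edited and wild-type libraries was 93.0 and 51.3 for CBS, 29.5 and 20.9 for PPP1R3C, and 9.12 and 5.62 for FGFR3. It was 7.08 and 8.29 for NDRG2 and 6.87 and 5.20 for SLC4A4. CBS had 70.5, 66.9 and 142 CPM in clone 2 and clone 6 replicates 1 and 2, against 47.6 and 55.1 CPM in wild-type replicates 1 and 2. FGFR3 had 10.4, 13.0 and 3.94 CPM against 6.79 and 4.46 CPM, in the same order. The genotypes overlapped in FGFR3, PPP1R3C, NDRG2 and SLC4A4. ALDH1L1, a folate enzyme used to label astrocytes, had 0 or 1 read in the edited libraries and 4 and 6 reads in wild type. SLC1A2, the main glutamate transporter of mature astrocytes, had 2 to 4 reads in the edited libraries and 5 and 7 in wild type, and the potassium channel gene KCNJ10 had at most 1. The 1 call among them was of the cysteine protease inhibitor CST3, which had 92.4 ± 3.88 CPM in the edited libraries (SD, n = 3) and 57.6 ± 0.130 CPM in wild type (SD, n = 2), and rose by a log2 value of 0.68 (SE 0.0882, edgeR adjusted p = 0.00419). Leaving out wild-type replicate 1 or 2 gave CST3 an adjusted p of 0.0650 or 0.0587. The median of the 9 tested genes was 0.50, beside 0.025 over all genes, and -0.083 with no filter beyond 1 read. Among all genes tested, 7.64% were called higher and 9.49% lower.

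Of 35 regulators of gliogenesis, 30 were tested, and 1 was higher and 5 lower, with a median log2 fold change of -0.095 that was 0.098 without wild-type replicate 1. Over all genes tested, 7.64% were called higher and 9.49% lower. Without clone 6 replicate 2, 4 regulators were higher and 10 lower, in a fit that called more of all genes as well. Fewer were called without wild-type replicate 2, where wild type was 1 library. BMPR2, a type II receptor for BMP ligands, had 25.3 to 37.2 CPM in the edited libraries and 112 and 87.9 CPM in wild type (log2 fold change -1.61, SE 0.188, adjusted p = 0.00291). LIFR, the receptor for leukemia inhibitory factor, which signals to STAT3, had 17.5 ± 2.19 CPM in the edited libraries and 44.4 ± 7.04 CPM in wild type, with a log2 fold change of -1.35 (adjusted p = 0.00275). HES1, a Notch target, had 9.10 to 14.1 CPM in the edited libraries and 22.1 and 47.2 CPM in wild type, and its log2 fold change of -1.64 (adjusted p = 0.0196) was -0.997 without wild-type replicate 2 (adjusted p = 0.119). HES1 was also not called when clone 2 or clone 6 replicate 1 was left out (adjusted p = 0.0598 and 0.0638). ID4, an inhibitor of helix-loop-helix factors, had 1 read over the edited libraries and 21 in wild type, a ratio of wild type to edited of 23.5 with a 95% counting interval of 3.78 to 972 (adjusted p = 0.0273). ID4 passed the filter on low counts only through wild type, which favoured a call of lower. Leaving out wild-type replicate 2 or clone 6 replicate 1 raised the adjusted p of ID4 to 0.0946 or 0.0814. STAT3 itself, with 134 CPM in the edited libraries and 119 CPM in wild type, did not pass the test (adjusted p = 0.288), nor did the NFIA paralogs NFIX and NFIC (adjusted p = 0.116 and 0.47).

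Around the glutamate and glutamine members, 15 of 17 transport and enzyme genes were tested, 2 were higher and 0 lower, and the median log2 fold change was 0.35. Among all genes tested, 7.64% were called higher and 9.49% lower, with a median of 0.025. Without clone 6 replicate 2, 5 of the list were higher and 1 lower, in a fit that called more of all genes as well. SLC1A1, a glutamate transporter that is mainly neuronal in the brain, had 11.8, 12.6 and 8.19 CPM in clone 2 and clone 6 replicates 1 and 2, against 1.85 and 1.93 CPM in wild-type replicates 1 and 2. All edited libraries stood above wild type, and the log2 fold change was 2.52 (SE 0.252, adjusted p = 0.00178). SLC1A4, a carrier of neutral amino acids, had 46.2 to 109 CPM in the edited libraries and 15.5 and 21.95 CPM in wild type (log2 fold change 1.87, adjusted p = 0.0257). The adjusted p of SLC1A4 was 0.211 or 0.126 when wild-type replicate 1 or 2 was left out.

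Among 13 connexins, pannexins and their junction partners, 7 were tested, 1 was higher and 2 lower, with a median of -0.27. The shares over all genes tested were 7.64% higher and 9.49% lower, with a median of 0.025. PANX1, a channel protein of the plasma membrane, had 24.6 ± 1.92 CPM in the edited libraries (SD, n = 3) and 46.7 ± 1.01 CPM in wild type (SD, n = 2), and its log2 fold change was -0.92 (SE 0.110, adjusted p = 0.00309, or 0.0536 when wild-type replicate 1 was left out). PANX2, a related channel protein, had a log2 fold change of -1.26 (adjusted p = 0.0147). Leaving out wild-type replicate 1, wild-type replicate 2 or clone 2 raised its adjusted p to 0.125, 0.0942 or 0.0557. GJC1, which encodes connexin 45, had 81.3 CPM in the edited libraries and 87.3 CPM in wild type and did not pass the test (adjusted p = 0.464). GJB6, the other main connexin of astrocytes, had 0 reads in all libraries, as did GJA5.

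Genes of reactive astrocytes, the state that follows injury or inflammation, had 0 higher and 3 lower genes among 12 tested of 20, with a median of -0.26. Among all genes tested, 7.64% were called higher and 9.49% lower, with a median of 0.025. Without clone 6 replicate 2, 8 of the list were lower, in a fit that called more of all genes as well. GBP2, a guanylate-binding protein induced by interferon, had 3, 1 and 1 reads in clone 2 and clone 6 replicates 1 and 2, against 182 and 128 reads in wild-type replicates 1 and 2 (log2 fold change -6.02, adjusted p = 0.000295, or -6.67 without clone 2). GBP2 passed the filter on low counts only through wild type. C3, the central complement component, had 1.48 and 1.99 CPM in clone 2 and clone 6 replicate 1 and 6.38 CPM in clone 6 replicate 2, against 218 and 114 CPM in wild-type replicates 1 and 2. Its log2 fold change of -5.63 (adjusted p = 0.0017) was -6.60 without clone 6 replicate 2 and -5.09 without wild-type replicate 1. OSMR, the oncostatin M receptor, had 34.8 to 46.5 CPM in the edited libraries and 156 and 106 CPM in wild type (log2 fold change -1.73, adjusted p = 0.00243). VIM, an intermediate filament gene found in reactive and immature astrocytes, had 655 CPM in the edited libraries and 627 CPM in wild type and did not pass the test (adjusted p = 0.744).

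Of 15 radial glia and progenitor genes, 7 were tested, 1 was higher and 3 lower, with a median of -0.64. The shares over all genes tested were 7.64% higher and 9.49% lower, with a median of 0.025. SOX2 and FABP7, defining genes of radial glia, had 0 reads in all 5 libraries, as did PTPRZ1. TNC, a matrix glycoprotein of outer radial glia, had 9 to 14 reads in each edited library and 4612 and 4076 reads in wild type (log2 fold change -8.07, SE 0.129, adjusted p = 2.01e-06). HOPX, a nuclear protein of outer radial glia, rose by a log2 value of 0.98 (adjusted p = 0.0316). It was not called when wild-type replicate 1 (0.234), wild-type replicate 2 (0.109), clone 2 (0.0523) or clone 6 replicate 1 (0.0691) was left out, with the adjusted p in parentheses. HES1 and LIFR, described with the gliogenesis regulators, also belong to this list.

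Markers of other cell types were measured beside the members, and their part in the members' differences was not tested. Their counts of calls stand beside 7.64% of all genes tested called higher and 9.49% lower. Of 14 neuron genes, 5 were tested, 2 were higher and 0 lower, with a summed level of 23.4 to 25.6 CPM in the edited libraries and 11.2 to 11.6 CPM in wild type, and STMN2, DCX, ELAVL4, NEFL and NEFM were at 0. The neurofilament gene INA rose by a log2 value of 3.05 (adjusted p = 0.0034), with 2.505 and 3.81 when wild-type replicate 1 or 2 was left out, and GAD1, which makes GABA, rose by 1.28 (adjusted p = 0.003). Of 11 oligodendrocyte lineage genes, 6 were tested, 1 was higher and 1 lower, and MBP, a myelin protein gene, had a log2 fold change of -1.92 (adjusted p = 0.00649, or 0.0835 when wild-type replicate 1 was left out). MOG, MAG, OLIG1 and OLIG2 were at 0. The list summed to 334, 333 and 253 CPM in clone 2 and clone 6 replicates 1 and 2, so the low end was clone 6 replicate 2 alone. Wild-type replicates 1 and 2 had sums of 360 and 347 CPM. Most of each sum was CSPG4 and CNP, which did not pass the test (adjusted p = 0.283 and 0.5). Of 10 microglia genes, 8 had 10 reads or fewer in all, 1 was tested and 0 were called, with sums of 0.938 to 1.42 CPM in the edited libraries and 1.60 to 2.54 CPM in wild type. CX3CR1, C1QA, C1QB and TYROBP were at 0.

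Of 9 endothelial genes, 6 were tested, 1 was higher and 3 lower, with a median of -0.88 and a summed level of 11.1 to 16.6 CPM in the edited libraries and 38.2 to 43.4 CPM in wild type. Among all genes tested, 7.64% were called higher and 9.49% lower. The receptor TIE1 had 1.21 ± 0.0829 CPM in the edited libraries (SD, n = 3) and 19.1 ± 0.277 CPM in wild type (SD, n = 2), with a log2 value of -3.97 for the change (adjusted p = 0.000171). The receptor FLT1 had 0 reads in the edited libraries and 31 in wild type, which is at least 3.33-fold lower against a floor of 3 reads per library (adjusted p = 0.0191). FLT1 passed the filter on low counts only through wild type, so the filter itself favoured a call of lower. ERG, an endothelial transcription factor, rose by a log2 value of 2.56 (adjusted p = 0.0104), and it passed the filter only through the edited libraries. Leaving out wild-type replicate 1 gave 3.30 (adjusted p = 0.0563) and leaving out replicate 2 gave 2.12 (adjusted p = 0.0827). TEK, the angiopoietin receptor, had a log2 fold change of -0.95 (adjusted p = 0.0297). Its adjusted p was 0.23, 0.101, 0.063 or 0.054 when wild-type replicate 1, wild-type replicate 2, clone 2 or clone 6 replicate 1 was left out. Of 14 fibroblast and pericyte genes, 12 were tested, 1 was higher and 8 lower, with a median of -1.46. The shares over all genes tested were 7.64% higher and 9.49% lower, with a median of 0.025. Fewer genes of the list were called lower when a wild-type library was left out, where wild type was 1 library. The sums of the list were 1849 CPM for clone 2, 1885 CPM for clone 6 replicate 1 and 641 CPM for clone 6 replicate 2, against 2351 and 2113 CPM in wild-type replicates 1 and 2, so the low end was clone 6 replicate 2 alone. Most of each sum was the collagen gene COL1A1, which did not pass the test (adjusted p = 0.468) and had 1607, 1645 and 512 CPM in clone 2 and clone 6 replicates 1 and 2, against 1894 and 1691 CPM in wild-type replicates 1 and 2. Without COL1A1 the sums were 129 to 243 CPM in the edited libraries and 422 to 457 CPM in wild type. ABCC9 and KCNJ8, subunits of a potassium channel of pericytes, had 1 to 2 and 6 to 13 reads in the edited libraries, against 204 and 264 reads of ABCC9 and 515 and 502 reads of KCNJ8 in wild type (adjusted p = 0.000269 and 0.000249). The aminopeptidase gene ANPEP had 0 reads in the edited libraries and 39 in wild type, at least 4.32-fold lower against the same floor (adjusted p = 0.0132). ABCC9 and ANPEP passed the filter only through wild type, which favoured calls of lower. Both are among the 8 lower genes of the list. RGS5, a pericyte marker, rose by a log2 value of 3.06 (adjusted p = 0.00571, or 0.0807 and 0.0782 when wild-type replicate 1 or 2 was left out).

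**Figure D4:**
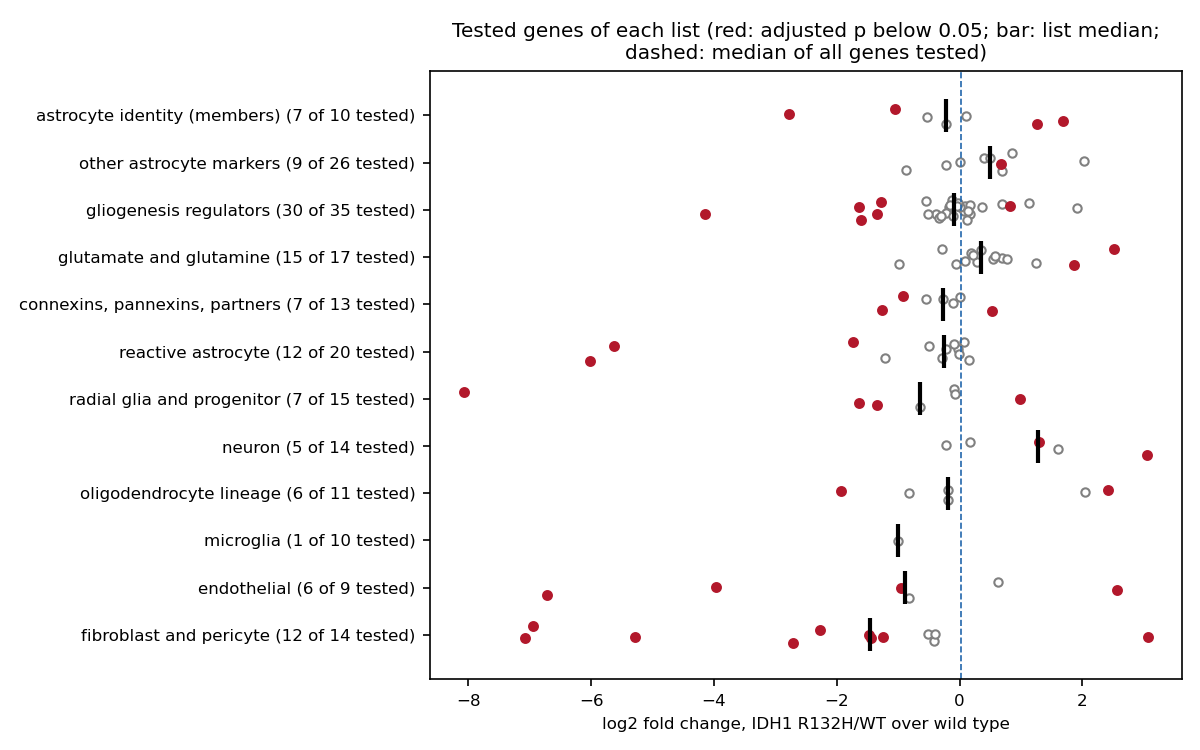
Each point is the log2 fold change of the edited libraries over wild type (x axis) for 1 tested gene of a list, red where the adjusted p is below 0.05, with a black bar at the list median and a dashed line at the median of all genes tested. Genes with 0 reads in all edited libraries (FLT1 and ANPEP) are drawn at fitted values that depend on the prior count. The astrocyte identity genes have red points on both sides of 0, and the fibroblast and pericyte list has most of its red points below 0. Among the latter are ABCC9 and ANPEP, which passed the filter on low counts only through wild type.

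Genes with profiles most like those of the called members were taken from 11215 genes, by the root mean square distance of centred log2 CPM over the 5 libraries. Nearest to GJA1 were TMTC1 (distance 0.0289), GAD1 (0.0541) and NEGR1 (0.058). CLU was nearest to PPME1 (0.0527), DAPK1 (0.0699) and SETBP1 (0.0704), and GLUL to BCHE (0.0249) and HTATSF1 (0.0413). For NFIA, which had few reads in the edited libraries, the nearest were SERPINA5 (0.205), IQGAP2 (0.217) and EPB41L2 (0.225). PPME1 and DAPK1 had mean levels of 251 and 336 CPM in the edited libraries and 79.8 and 97.5 CPM in wild type, and BCHE had 7.24 CPM in the edited libraries and 14.7 CPM in wild type.

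The 4 called members kept their direction and their call in the comparison of genotypes under each of 13 alternative settings. In those without a wild-type library, the 1 left was assumed to vary like the edited libraries. GJA1 had log2 fold changes of 1.13 to 1.33 with a highest adjusted p of 0.0419, CLU 1.58 to 1.81 with 0.0437, GLUL -1.10 to -1.004 with 0.0354, and NFIA -3.03 to -2.47 with 0.0496. SOX9 was called in 0 of the 13 (adjusted p 0.0542 to 0.367). NFIB was called lower with the replicate number as a block, at a log2 fold change of -0.32 (adjusted p = 0.0415), and in no other setting. With clone 2 and clone 6 replicate 1 summed into 1 library, as well as with either left out, GJA1 and CLU were called higher and GLUL and NFIA lower.

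**Figure D5:**
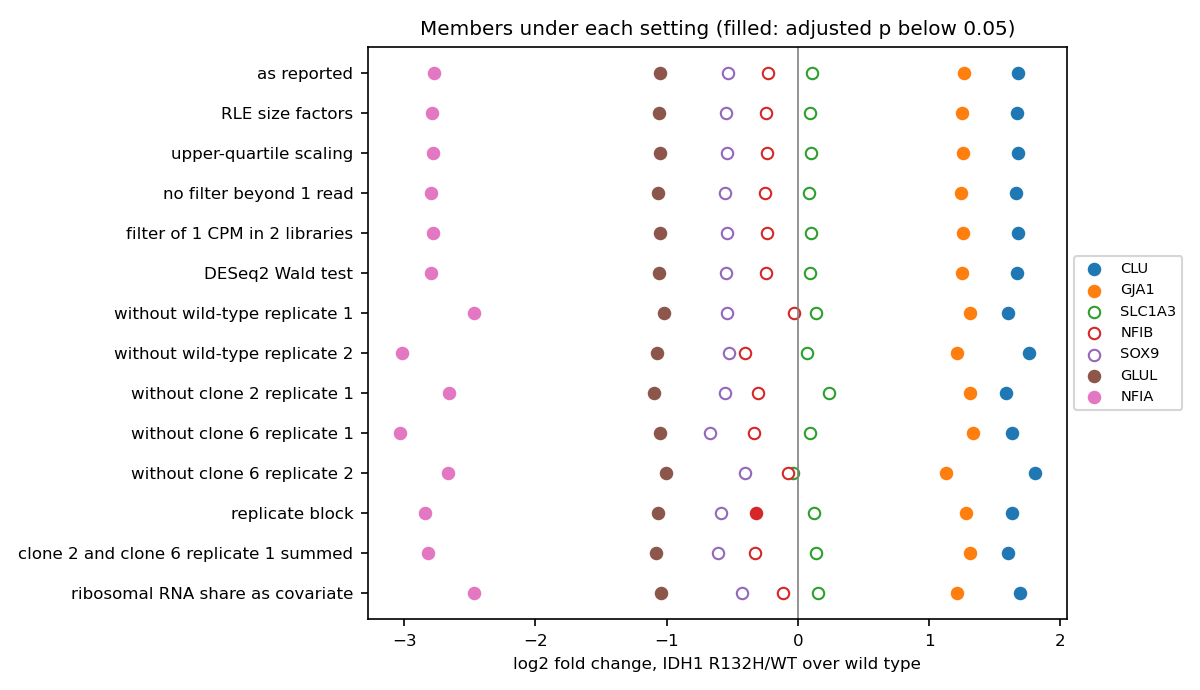
Log2 fold changes of the edited libraries over wild type (x axis) are drawn for the 7 members tested under the reported setting and each alternative (listed down the page), filled where the adjusted p is below 0.05. CLU, GJA1, GLUL and NFIA are filled in every setting, NFIB only with the replicate block, and SLC1A3 crosses 0 without clone 6 replicate 2.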

How the data were processed

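Sequencing of RNA gave 5 libraries of SVG-10B1 cells. The authors deposited 1 file per library with raw counts, that is, whole numbers of reads assigned to each gene. Per the submitters' processing notes, Trimmomatic, STAR and HTSeq and the genome build hg19 (GRCh37) were used, while no version, annotation release or strand setting is given in the sources used here. Each file listed 63677 genes with identifiers and symbols, of which 5772 had an empty value and 57905 had counts, and 0 entries named no gene.

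Samples were grouped by the labelled genotype and clone. The tests used edgeR 4.0.16 in R 4.3.3. Library sizes were scaled by TMM, filterByExpr on the clone groups kept 16471 genes, and quasi-likelihood F tests had 3 residual degrees of freedom for the genotype and 2 where each clone was its own group. P-values were adjusted over all genes tested by the Benjamini-Hochberg method, and a gene was called below 0.05. The SE of a log2 fold change was its size divided by the root of F. CPM used TMM-scaled library sizes, on which 3 reads were 0.139 to 0.230 CPM, the limit that a count of 0 allows. Log2 CPM used a prior count of 2. Intervals of counts and of their ratios are exact 95% Poisson intervals, and these and the limits cover counting error only. Levels per kb used merged exon lengths of basic transcripts in GENCODE 29 (GRCh38), matched on gene identifiers, which also gave the chromosomes. Promoter windows are from RefSeq (GRCh38.p14).

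The members and the 11 further gene lists were chosen with earlier results of these data known. The genes named were all 10 members, up to 4 called genes of each list with the largest absolute log2 fold change, and IDH1. The 3 genes nearest in profile to each called member came from 11215 genes whose average log2 CPM was 2 or more. List genes with 0 or nearly 0 reads and some list genes that were tested and not called are named as well. Alternatives were RLE and upper-quartile scaling, no filter beyond 1 read, a filter of 1 CPM in 2 libraries, the DESeq2 1.42.0 Wald test, leaving out each library, the replicate number as a block, the sum of the clone 2 and clone 6 replicate 1 libraries as 1 library, the share of ribosomal RNA reads as a covariate, and CPM on unscaled totals. The procedure was tested on simulated data. Cell or tissue proportions were not estimated. A few genes that the naming rule selects are not reported here by name, and they stay in the counts and medians of their lists.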

Additional observations from a re-analysis of the deposited data

How the results depend on the processing

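In the comparison of genotypes, 89 of 91 refitted log2 fold changes of members kept their direction and their side of the threshold, 1 passed it newly (NFIB with the replicate block, -0.32) and 1 changed sign (SLC1A3, -0.036 to 0.24 with 1 library left out). The 2822 genes called became 4274 with no filter beyond 1 read, 1528 with clone 2 and clone 6 replicate 1 summed, 1162 with the share of ribosomal RNA reads as covariate and 500 to 5971 with 1 library left out (500 without wild-type replicate 1 and 5971 without clone 6 replicate 2). For clone 6 the 1479 genes became 3144 with no filter and 329 to 5119 with 1 library left out, and for clone 2 the 628 became 1878 with no filter and 175 to 3510. Members called in clone 6 ranged from 1 to 2 higher and 0 to 4 lower with 1 library left out. In clone 2 they ranged from 1 to 2 higher and 0 to 2 lower, and 1 was lower with upper-quartile scaling. Between the clones, the 0 genes called became 99 with no filter, 2 with DESeq2 and 0 to 872 with 1 library left out. Higher genes of the further astrocyte markers numbered 5 with no filter, 2 with DESeq2, 2 with the replicate block and 0 to 5 with 1 library left out. With replicate numbers as a block, 4499 genes were called between genotypes, 2569 for clone 6 and 1115 for clone 2. The numbers pair the samples by number only, with a correlation across genes of 0.172 between same-numbered deviations in 2 pairs. Signs also changed with 1 library left out for NFIB in clone 2 (-0.26 to 0.11) and, between the clones, for GJA1 (-0.046 to 0.32), NFIA (-0.045 to 0.70), NFIB (-0.54 to 0.051) and SOX9 (-0.38 to 0.21, and 0.059 with the block). None of these passed the test. Medians of lists moved beyond the spread between edited libraries in 12 of their refits and stayed within it in 144. For list genes, 301 refits kept the call and 44 lost it. The causes were not tested, except that fits without a library have fewer samples and unfiltered fits test more genes. GFAP, S100B and AQP4 had 9 reads or fewer per library, and for GFAP the counting of reads in shared exons is not known.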
